A study of Rattus norvegicus with 24 samples.

Results

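Apold1, Sox18, Adamts1, Kdr, Flt1, Tek, Cldn5 and Pecam1 are 8 genes of the vessel lining that were followed across 6 regions of the rat brain after MK-801, a blocker of the open NMDA receptor channel. They were found by gene symbol among the non-control probes of the arrays, where 11 probes carried their names or earlier names. Of the 8 genes, 7 gave a usable signal, out of 23475 genes or transcripts that did so in all. The genes were chosen by how they differed between MK-801 and saline in these same arrays, so their MK-801 over saline values are given as a description. The MK-801 groups received 0.16 mg/kg (high dose) or 0.08 mg/kg (low dose) by intraperitoneal injection, and the saline group received the vehicle. All were male Wistar rats, 10 weeks old, 6 on MK-801 and 3 on saline, with brains taken 40 min after the injection. On each of the 24 arrays, material from 1 region of MK-801 and of saline rats was labelled in different colours, and 2 arrays with exchanged dyes (a dye swap) made 1 value per region and dose. Which rats stand behind an array, and whether they were pooled, is not in the labels, so every spread below is between arrays or between regions of the same animals. Unless a level is named, a value is the log2 of MK-801 over saline, and a single dye swap carries no replicate error.

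The endothelium lines every brain vessel and, in the brain, is sealed by tight junctions that form the blood-brain barrier. Its growth and stability are governed by VEGF, which acts on the receptors Kdr and Flt1, and by angiopoietins, which act on the receptor Tek. Early response genes are transcribed within minutes of a stimulus without new protein synthesis, and endothelial cells have a set of their own.

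Each gene was read by probes of 60 bases, with positions on assembly rn3 as the scanner files give them. Probes of the 4 genes whose mean ratios lay farthest from 0 are shown first, because every value below rests on hybridisation to these oligonucleotides.
Apold1, chr4:172152432-172152491, plus strand: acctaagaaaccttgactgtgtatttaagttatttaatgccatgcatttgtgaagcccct
Adamts1, chr11:25434208-25434267, minus strand: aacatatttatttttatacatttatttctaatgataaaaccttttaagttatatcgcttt
Sox18, probe 1, chr3:170726713-170726772, minus strand: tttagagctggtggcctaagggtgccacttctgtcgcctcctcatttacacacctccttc
Sox18, probe 2, chr3:170727039-170727098, minus strand: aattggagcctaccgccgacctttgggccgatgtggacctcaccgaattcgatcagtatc
Kdr, no position in the files: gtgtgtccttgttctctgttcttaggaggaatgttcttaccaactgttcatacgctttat
The Apold1 probe is listed in the files as Verge, an older name, and was matched by its accession. The Adamts1 probe is the poorest in G and C, at 16.7% of its bases, against 35% to 55% in the other 10 probes. It was also dimmer than the other probes shown, with both colours well above background on 17 of the 24 arrays. Apold1, both Sox18 probes and Kdr passed on all 24. No spot of any of the 11 probes was saturated.

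RefSeq promoters on assembly GRCr8, from 250 bases before to 50 bases after the start, were at hand for 5 of the 8 genes. Those of Apold1 and Adamts1 are shown because these genes had the highest MK-801 over saline ratios of the 8. Capitals mark TATAAA (the TATA box) and TGACG or its reverse complement CGTCA (the core of the cyclic AMP response element).
Apold1, chr4:169552349-169552648, plus strand: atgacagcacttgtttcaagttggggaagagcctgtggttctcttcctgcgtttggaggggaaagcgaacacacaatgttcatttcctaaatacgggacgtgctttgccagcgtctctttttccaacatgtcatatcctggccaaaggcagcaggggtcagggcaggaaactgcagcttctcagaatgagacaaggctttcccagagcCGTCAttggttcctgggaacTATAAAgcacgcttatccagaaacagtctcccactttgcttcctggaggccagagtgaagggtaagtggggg
Adamts1, chr11:38427335-38427634, minus strand: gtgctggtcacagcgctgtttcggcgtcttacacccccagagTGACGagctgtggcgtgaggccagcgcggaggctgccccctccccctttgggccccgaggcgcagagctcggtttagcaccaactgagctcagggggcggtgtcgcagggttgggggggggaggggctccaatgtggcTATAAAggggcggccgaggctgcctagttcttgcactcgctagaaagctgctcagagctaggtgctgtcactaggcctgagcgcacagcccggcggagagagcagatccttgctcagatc
The TATA box began 22 bases before the start in Apold1 and 70 bases before it in Adamts1. The Flt1 window held TATAAA as well, 75 bases before the start, and TGACG on both strands. Over all 33469 promoters of the table, searched on both strands, 14.2% held TATAAA and 21.2% held TGACG. The whole element TGACGTCA, which contains that core, was in 1.83% of promoters and in neither of these, although the Flt1 window held it. The AP-1 motif TGANTCA (7.33% of promoters) and the CArG box (1.64%) were in none of the 5 windows. The GC box GGGCGG, present in 33.1% of promoters, was in the windows of Adamts1, Cldn5, Flt1 and Kdr. A match of letters is a description of the window and not a binding site.

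Apold1 encodes an endothelial protein that is known as an early response gene of vessels. Its log2 ratio of MK-801 to saline was above 0 in all 6 regions at both doses and on 23 of 24 single arrays. In the cerebral cortex it was 3.08 at the high dose (8.48-fold) and 2.53 at the low dose (5.77-fold). There the MK-801 colour read 13.17 and 13.53 on the high dose arrays, against 9.88 and 10.65 for the saline colour (log2 intensity). The other high dose ratios were 2.34 in the amygdala, 2.18 in the ventral striatum, 1.97 in the hippocampus, 1.19 in the hypothalamus and 0.84 in the midbrain. At the low dose these regions gave 0.96, 1.10, 0.70, 0.34 and 0.30, in the same order. The cortex was thus highest and the midbrain lowest at both doses, and the single array below 0 was a low dose midbrain array, at -0.03. Over the 6 regions the mean was 1.93 ± 0.81 at the high dose and 0.99 ± 0.82 at the low dose (SD, n = 6). Without the cortex the low dose mean was 0.68.

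Adamts1, a secreted metalloprotease that cuts matrix proteoglycans, had its highest ratios in the same 3 regions. In the cerebral cortex its log2 ratio was 1.64 at the high dose (3.12-fold) and 1.15 at the low dose (2.22-fold). The amygdala followed with 0.97 and 0.39, and the ventral striatum with 0.75 and 0.34, each high dose first. In the remaining regions the ratios were 0.26 and 0.06 in the hippocampus, 0.20 and -0.06 in the hypothalamus and 0.20 and -0.04 in the midbrain. Both colours were well above background on 1 of 2 arrays at each dose in the hippocampus. In the hypothalamus they were so on 1 of 2 arrays at the high dose and 0 of 2 at the low dose. So near background, the ratios of these 2 regions do not show whether the gene changed. The high dose swaps of the amygdala and ventral striatum also had 1 of 2 arrays passing. The 2 arrays of a swap bracketed 0 in the midbrain at both doses, from -0.07 to 0.48 at the high dose and from -0.30 to 0.22 at the low dose. Across regions the mean was 0.67 ± 0.57 at the high dose and 0.31 ± 0.46 at the low dose (SD, n = 6). The low dose mean was 0.14 without the cortex, and the high dose mean was 1.27 when the scanner software's own log ratio was used.

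Sox18, a transcription factor of the SoxF family that acts in vessel and lymph vessel development, was below saline where Apold1 was above it. In RNA of whole tissue, fewer endothelial cells and less of an RNA per endothelial cell cannot be told apart from a single gene, here and for every gene below. The median of the 11 measured endothelial markers in the cerebral cortex was 0.04 at the high dose and -0.04 at the low dose. By probe 1 its log2 ratio in the cerebral cortex was -0.86 at the high dose (0.549 of saline) and -0.57 at the low dose (0.672 of saline). By probe 2 it was -0.79 and -0.41 there. Both probes therefore had their lowest values in the cortex at both doses. At the high dose probe 1 gave -0.44 in the amygdala, -0.35 in the ventral striatum, -0.31 in the hippocampus, -0.19 in the hypothalamus and -0.05 in the midbrain. At the low dose those 5 regions lay between -0.18 and -0.0050. The mean by probe 1 was -0.37 ± 0.28 at the high dose and -0.20 ± 0.19 at the low dose, and by probe 2 it was -0.32 ± 0.27 and -0.10 ± 0.16 (SD, n = 6). The probes lie on the same strand with no shared bases, and at the low dose probe 2 was above 0 in 3 of 6 regions where probe 1 was above 0 in 0.

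**Figure D1:**
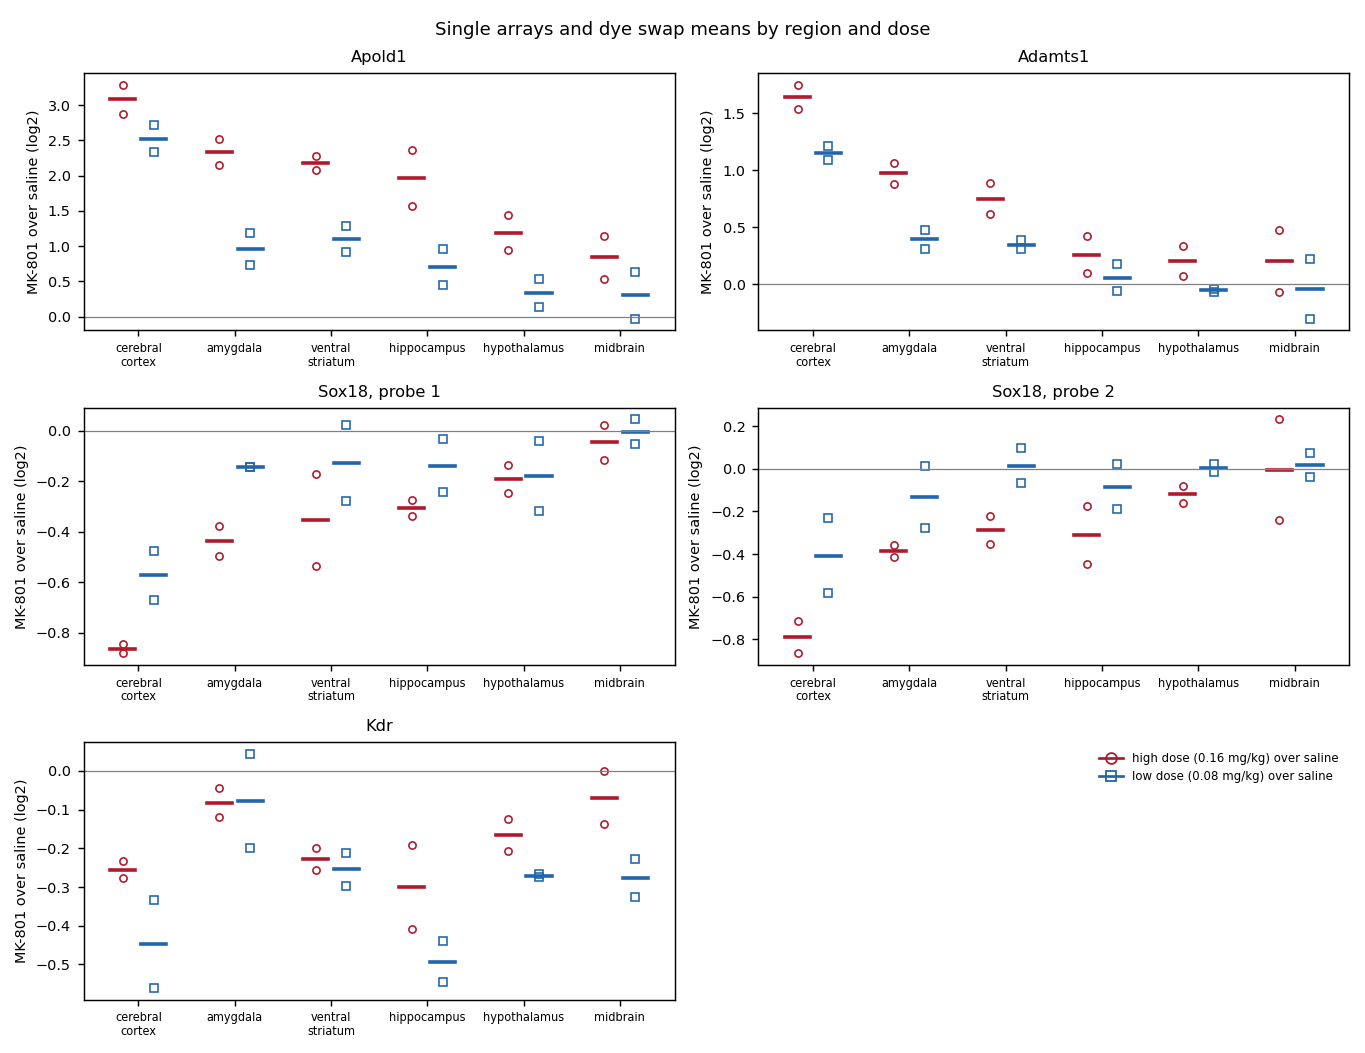
MK-801 over saline (log2, vertical axis) by region for Apold1, Adamts1, both Sox18 probes and Kdr, with red circles for single high dose arrays, blue squares for single low dose arrays and bars for the mean of each dye swap. Apold1 and Adamts1 are highest and both Sox18 probes lowest in the cerebral cortex, at 3.08, 1.64, -0.86 and -0.79 for the high dose, while the Kdr bars of both doses lie between -0.49 and -0.07 and its single arrays between -0.56 and 0.04.

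Apold1 and Adamts1 ran in parallel over regions and doses, and Sox18 ran opposite to both. Over the 12 values of region and dose, Pearson's r was 0.93 between Apold1 and Adamts1, -0.92 between Apold1 and Sox18 (probe 1) and -0.94 between Adamts1 and Sox18. Within the high dose alone the first of these pairs had r = 0.90 and the second r = -0.95, and within the low dose 0.99 and -0.92 (n = 6 regions each). Without the cortex, over 10 values, they were 0.88 and -0.90. Apold1 and Kdr had r = -0.05 over the 12 values, -0.51 within the high dose, -0.34 within the low dose and 0.27 without the cortex. These coefficients describe the points only, because both doses use the same saline group and the 3 genes were chosen with such values in view. The Adamts1 points of the hippocampus and hypothalamus rest on dim spots. Among 221 named genes with all 12 values and an SD of at least 0.2 over them, those most like Apold1 by the same measure were Atf3 (r = 0.991), Klf2 (0.983), Depp1 (0.971), Bcl6b (0.961) and Btg2 (0.952).

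**Figure D2:**
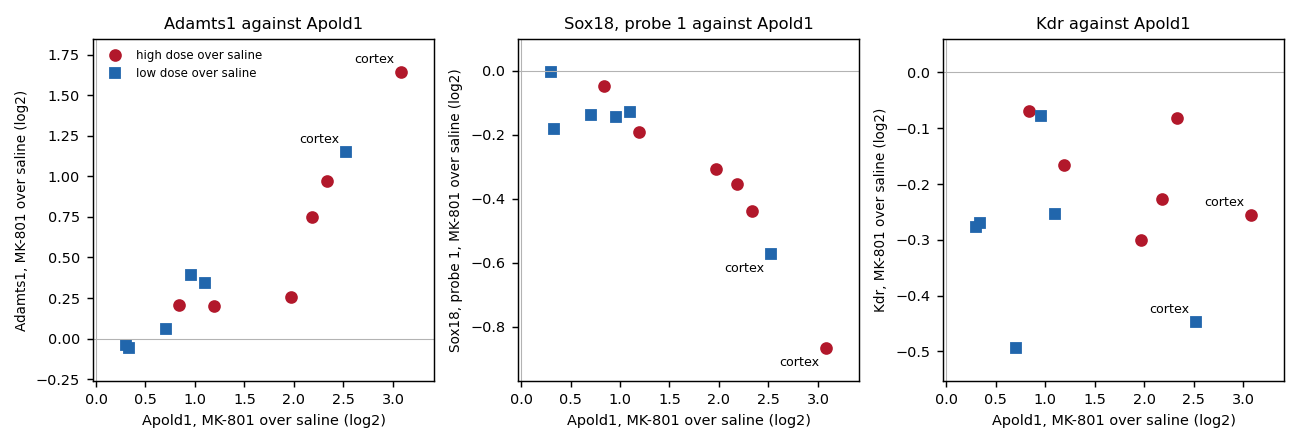
Each point is 1 region at 1 dose (red circles high, blue squares low), with the Apold1 log2 ratio of MK-801 to saline on the horizontal axis and that of Adamts1, Sox18 (probe 1) or Kdr on the vertical axis. Adamts1 climbs with Apold1 (r = 0.93) and Sox18 descends (r = -0.92), with the cortex at the far end, and for Kdr r is -0.05 over all points, -0.51 within the high dose and -0.34 within the low dose.

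Kdr, the receptor through which VEGF drives endothelial growth, was below saline in every region, by differing amounts. At the high dose its log2 ratio was -0.30 in the hippocampus, -0.26 in the cerebral cortex, -0.23 in the ventral striatum, -0.17 in the hypothalamus, -0.08 in the amygdala and -0.07 in the midbrain. At the low dose it was -0.49, -0.45, -0.25, -0.27, -0.08 and -0.28 in the same regions. It was below 0 in 6 of 6 regions at each dose, and MK-801 was the higher colour on 1 of 24 arrays. The mean was -0.18 ± 0.09 at the high dose and -0.30 ± 0.15 at the low dose (SD, n = 6), or 0.881 and 0.811 of saline. The 5 genes whose 12 ratios were most like those of Kdr, of 222 candidates, were Plac8 (r = 0.894), Mfap5 (0.891), Thbs2 (0.890), Igfbp2 (0.847) and RT1-Da (0.832). The median of the 7 meningeal and fibroblast markers was lowest in the same regions as Kdr at the low dose, at -0.97 in the cortex and -0.55 in the hippocampus, against -0.29 to 0.12 in the other 4. At the high dose it was -0.61 in the hippocampus, -0.20 in the hypothalamus, -0.03 in the ventral striatum, 0.07 in the cortex, 0.10 in the amygdala and 0.65 in the midbrain. The part of these cells in the Kdr values was not tested.

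Of the remaining 4 genes, Flt1, Tek and Cldn5 had means near 0, and Pecam1 was too dim to judge. Flt1, which binds VEGF and in its soluble form withholds it, averaged -0.04 ± 0.07 at the high dose and 0.02 ± 0.09 at the low dose by its brighter probe, and -0.02 ± 0.07 and -0.04 ± 0.09 by the other (SD, n = 6). Tek, the angiopoietin receptor, averaged -0.03 ± 0.12 at the high dose and -0.04 ± 0.05 at the low dose. Cldn5, the main claudin of brain endothelial tight junctions, averaged 0.02 ± 0.11 at the high dose (n = 5) and -0.03 ± 0.09 at the low dose (n = 6). Its hippocampal high dose value was left out, because 1 array of that swap had an outlier flag. Pecam1, an adhesion molecule of endothelial junctions, passed on 4 of 24 arrays and entered no fit. Its ratios averaged -0.06 ± 0.09 at the high dose and -0.02 ± 0.06 at the low dose, and on a probe so near background these do not show whether the gene changed. A further Tek probe passed on 2 of 24 arrays and was left out too. For Cldn5 the 2 arrays of a swap lay on opposite sides of 0 in every region with both arrays except the hypothalamus. In the midbrain its 2 high dose arrays gave -0.31 and 0.61 and its low dose arrays -0.33 and 0.53, and the red dye read lower than the green by 0.23 on average over the arrays, as a log2 ratio of -0.23.

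**Figure D3:**
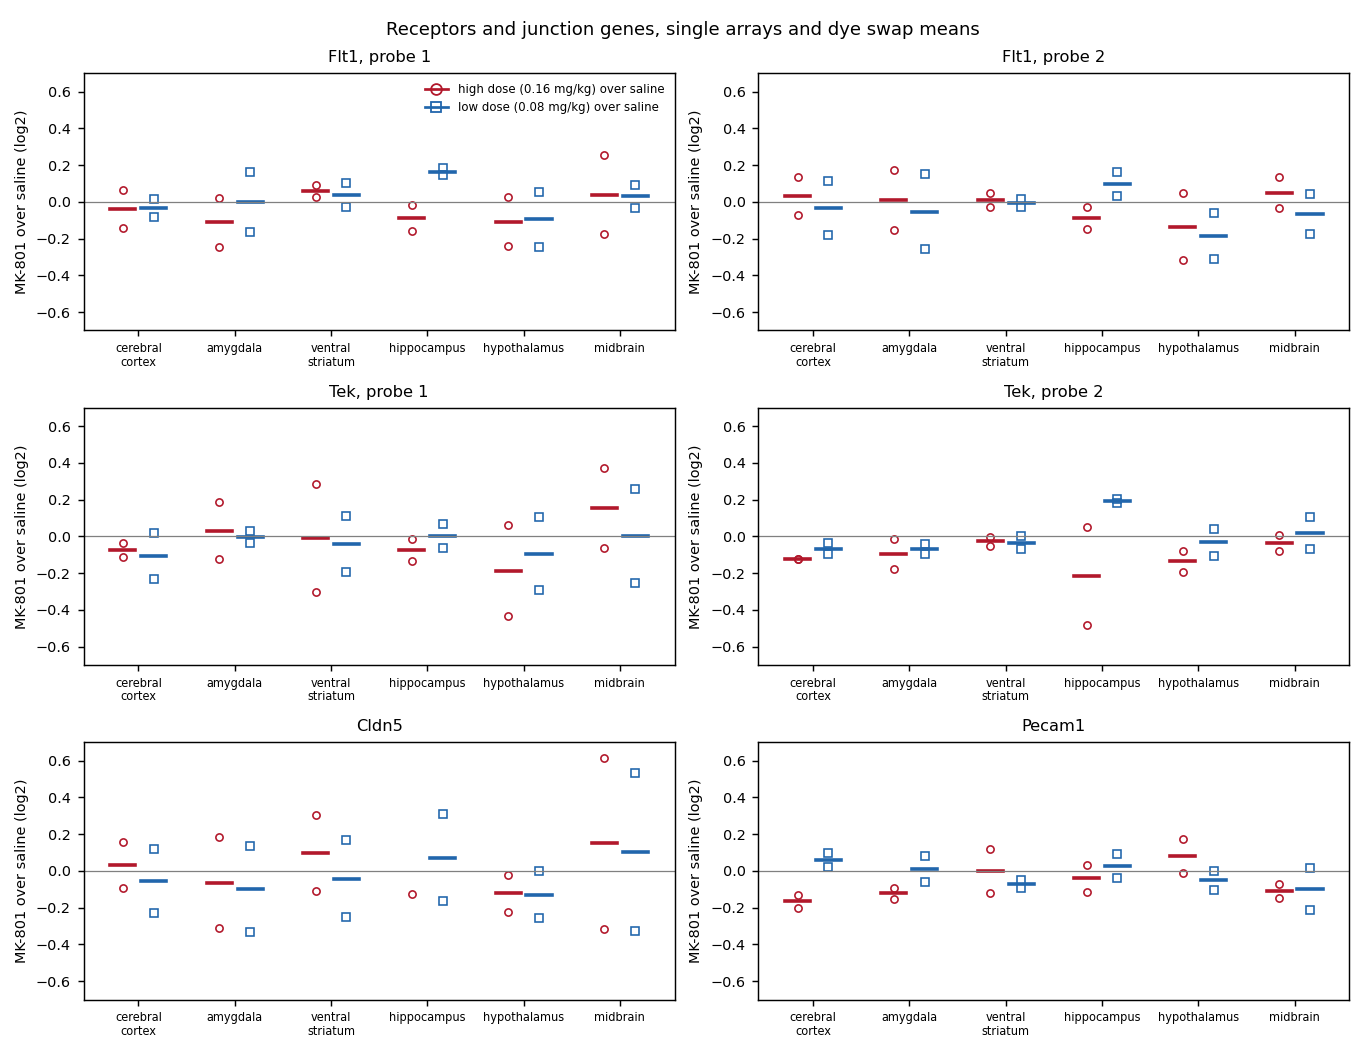
MK-801 over saline (log2, vertical axis) by region for Flt1, Tek, Cldn5 and Pecam1 probes, with red circles for single high dose arrays, blue squares for single low dose arrays and bars for dye swap means. The single arrays straddle 0 in most regions, as for Cldn5 in the midbrain at the high dose (-0.31 and 0.61), and no bar is plotted for Cldn5 in the hippocampus at the high dose.

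In the fit of limma across all genes, with Benjamini-Hochberg adjustment and a call at an adjusted p under 0.05, 2.63% of the 23095 genes tested were called over both doses. Of the 7 vessel genes fitted, Apold1 was called higher and Kdr lower. At the high dose, where 2.11% of 23333 genes were called, Apold1 was called higher and Sox18 and Kdr lower. At the low dose, with 2.61% of 23335 genes called, Apold1 was called higher and Kdr lower. These calls used the contrast by which the genes were chosen, so nothing is read from them. The median of the 7 genes was -0.01 over both doses, against 0.0004 for all genes.

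The difference between the doses was not itself the contrast of the choice, although the values at each dose were known when the genes were taken. The adjusted p below come from the fit to all genes and are no independent support. Apold1 was 0.94 ± 0.35 higher at the high dose than at the low dose (1.92-fold, n = 6 regions, adjusted p = 0.000154, limma), with 6 of 6 regions above 0. The regional differences were 1.37 in the amygdala, 1.26 in the hippocampus, 1.08 in the ventral striatum, 0.85 in the hypothalamus, 0.56 in the cerebral cortex and 0.54 in the midbrain. The cortex, first in the ratio to saline at each dose, was thus next to last in the difference between doses. Adamts1 was 0.36 ± 0.15 higher at the high dose (1.29-fold, n = 6 regions, adjusted p = 0.00139, limma), also in 6 of 6 regions, from 0.20 in the hippocampus to 0.58 in the amygdala. Its hippocampal and hypothalamic values rest on dim spots. The Sox18 difference was -0.17 ± 0.12 by probe 1 and -0.22 ± 0.13 by probe 2, below 0 in 6 of 6 regions by both, and did not pass (adjusted p = 0.0759, limma). Kdr, at 0.12 ± 0.09 and above 0 in 5 of 6 regions, did not pass (adjusted p = 0.194, limma). The differences of Flt1 (-0.06 ± 0.11), Tek (0.01 ± 0.09) and Cldn5 (0.06 ± 0.05, n = 5) did not pass (adjusted p = 0.657, 0.932 and 0.562, limma). Of all 23095 genes tested, 1.52% were called for high minus low, and 2 of the 7 vessel genes were. The median difference was 0.06 for the 7 genes and -0.0034 for all genes.

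The arrays had been scanned on 3 days with 2 regions on each. Within these days the Apold1 difference was 0.82 for the ventral striatum and cortex, 0.96 for the midbrain and amygdala and 1.06 for the hippocampus and hypothalamus. That of Adamts1 was 0.45, 0.41 and 0.23 in the same order, and its call ended within the last 2 days (adjusted p = 0.103 and 0.311, limma, 2 regions each). In a fit to single arrays with dye orientation as a block, which does not pair the doses by region, the same differences did not pass (adjusted p = 0.109 for Apold1 and 0.692 for Adamts1, limma). The Apold1 call also ended with an intensity trend and a robust prior (adjusted p = 0.0505, limma).

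Blood cell genes also differed between the high and low dose groups. All 3 measured red blood cell genes of the 4 listed were higher at the high than at the low dose, Hbb by 0.88 ± 0.26, Alas2 by 0.61 ± 0.09 and Slc4a1 by 0.26 ± 0.15 (SD, n = 6 regions, adjusted p = 3.19e-05, 1.16e-06 and 0.0125, limma). Their median ratio to saline lay between 0.13 and 0.41 over the regions at the high dose and between -0.57 and -0.12 at the low dose. The regions come from the same rats and are not independent values. Over all genes, 0.883% were called higher and 0.637% lower for high minus low. Of the 2 measured platelet genes Pf4 differed, by 0.39 ± 0.18 (adjusted p = 0.00242, limma). Of the 6 microglia genes, 0 had a difference above 0. P2ry12 and C1qa were called lower at the high dose, with differences of -0.23 ± 0.08 and -0.14 ± 0.05 (adjusted p = 0.00302 and 0.0444, limma). All 7 meningeal and fibroblast genes had differences above 0, with a median of 0.27, and 0 of them passed. The 11 measured endothelial markers, 4 of them among the genes described here, had a median difference of 0.02, and 0 passed. The part of these other cells in the Apold1 and Adamts1 differences was not tested.

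**Figure D4:**
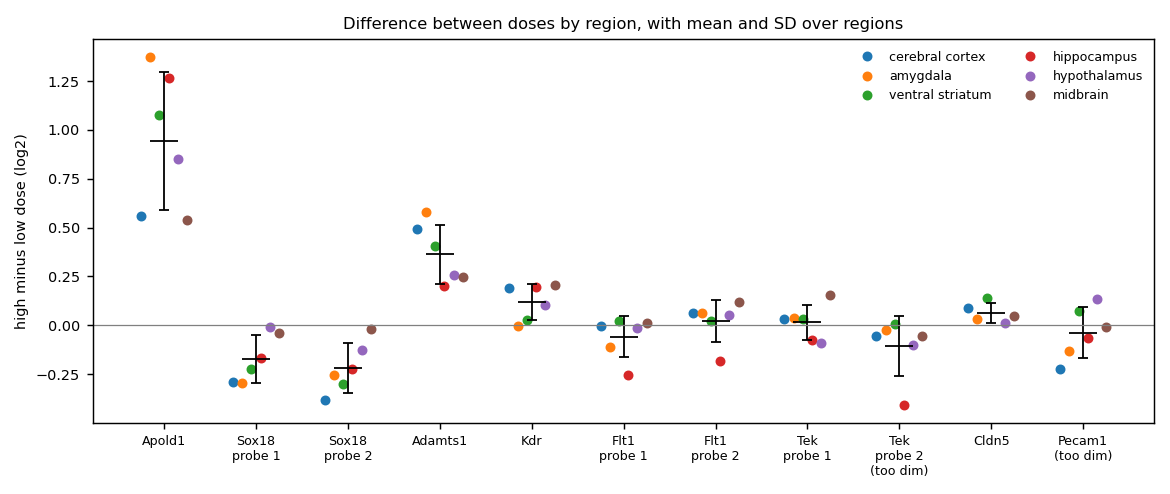
High minus low dose (log2, vertical axis) for each probe, with 1 coloured point per region and the mean and SD over regions in black. All 6 points lie above 0 for Apold1 (0.54 to 1.37) and Adamts1 (0.20 to 0.58) and below 0 for both Sox18 probes. The columns marked too dim passed on fewer than 12 of 24 arrays.

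Other early response genes known from vessels were called at both doses, more of them at the high dose. The RNA is of whole tissue, and which cells these changes came from was not tested. This list, like those that follow, was drawn up with earlier results of these arrays known. Of 15 measured, 7 rose at the high dose and 2 at the low dose, and 0 fell at either, with medians of 0.21 and 0.07. Of all genes tested, 1.14% were called higher at the high dose and 1.31% at the low dose. At the high dose the 7 were Ccn1, a secreted matrix protein, by 2.68 ± 1.41, Atf3, a stress-induced transcription factor, by 1.46 ± 1.07, Klf4, a zinc finger factor, by 1.12 ± 0.48, and Klf2, a factor induced in endothelium by flow, by 0.83 ± 0.32. The others were Nr4a1, an orphan nuclear receptor, by 0.61 ± 0.31 (n = 4), Ccn2, a matrix protein, by 0.43 ± 0.14, and Klf6 by 0.21 ± 0.15. At the low dose only Ccn1 (1.53 ± 1.38) and Klf2 (0.46 ± 0.29) of this list passed. For high minus low, 6 of the 15 rose and 0 fell, namely Atf3 (1.18 ± 0.64), Ccn1 (1.14 ± 0.51), Klf4 (0.65 ± 0.14, n = 5), Nr4a1 (0.51 ± 0.18, n = 4), Klf2 (0.37 ± 0.12) and Ccn2 (0.35 ± 0.14). Over both doses the 4 that rose were Ccn1 (2.11 ± 1.37), Klf4 (0.88 ± 0.48, n = 5), Klf2 (0.64 ± 0.30) and Ccn2 (0.25 ± 0.14). These 4 also passed for high minus low. Of all genes tested, 1.43% were called higher over both doses and 0.883% for high minus low. Edn1, the vasoconstrictor endothelin, had 0.30 at the high dose and 0.18 at the low dose and did not pass.

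Among genes of the barrier, 3 were called higher at each dose. Of 14 measured junction and transporter genes, 3 rose over both doses, with a list median of -0.0007. Over all genes, 1.43% were called higher and 1.2% lower over both doses. The share called higher was 1.14% at the high dose and 1.31% at the low dose. Abcg2, an efflux pump, rose by 0.69 ± 0.10 at the high dose and 0.55 ± 0.10 at the low dose. Mfsd2a, a lipid transporter needed for the barrier, rose by 0.18 ± 0.03 and 0.21 ± 0.03. Slc2a1, the glucose transporter, rose by 0.13 ± 0.06 and 0.12 ± 0.03. Itm2a was the 1 gene of the list that fell over both doses and at the high dose, with -0.13 ± 0.03 and -0.18 ± 0.07. For high minus low, 0 of the 14 passed, with Ocln, a tight junction protein, at -0.14 ± 0.09 (n = 5) and Abcg2 at 0.14 ± 0.07 as the values farthest from 0.

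The pathways around the receptors held few calls. Over all genes, 2.63% were called in either direction over both doses and 2.61% at the low dose. Of 5 measured VEGF ligands and receptors other than Kdr and Flt1, 0 passed in any comparison, and Vegfa had -0.08 ± 0.05 and Pgf 0.08 ± 0.06 over both doses. Of 4 angiopoietin and Tie genes 0 passed, and Angpt2, which antagonises Tek signalling, had a difference between doses of 0.28 ± 0.25. Of 10 endothelial transcription factors Foxq1 rose, by 0.21 ± 0.13 over both doses, and Sox17, the other measured SoxF gene, had -0.03 ± 0.05. Of 15 endothelial identity genes Cd93, a surface receptor, fell over both doses (-0.19 ± 0.05) and at the low dose (-0.24 ± 0.07), and Clec14a had -0.12 ± 0.09 over both. Of 7 other Adamts proteases 0 passed, with Adamts7 at -0.08 ± 0.04 and Adamts4 at 0.04 ± 0.13. Of 8 Notch genes Notch4 rose over both doses, by 0.09 ± 0.04, and Hes1 had 0.13 ± 0.15. At an unadjusted p under 0.05, 3162 of the 23095 genes fell below that limit over both doses, against 608 after adjustment.

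In saline RNA the genes differed between regions by up to 2.35-fold. Kdr had the widest range. Its saline level was 13.23 ± 0.23 in the amygdala, 13.17 ± 0.09 in the midbrain, 12.83 ± 0.10 in the hypothalamus, 12.81 ± 0.33 in the ventral striatum, 12.61 ± 0.10 in the cerebral cortex and 11.99 ± 0.24 in the hippocampus (log2 intensity, SD, n = 4 arrays). The steps from midbrain to hypothalamus and from cortex to hippocampus were larger than the SD of either neighbour, and the other 3 were not. The arrays of each region share a title number that no other region has, and the labels do not say what it marks. Region and array batch therefore cannot be told apart. Whether the 4 arrays share saline RNA of the same rats is not in the labels either. The SD holds array and dye error, and whether it also holds a difference between rats is unknown.

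Apold1 in saline RNA read 10.41 ± 0.07 in the ventral striatum, 10.35 ± 0.34 in the cerebral cortex, 10.24 ± 0.15 in the amygdala, 10.17 ± 0.56 in the midbrain, 10.10 ± 0.44 in the hypothalamus and 9.58 ± 0.63 in the hippocampus. No step between neighbours exceeded their SD, so the saline level did not set the cortex apart as the MK-801 ratio did. Adamts1 ran from 7.37 ± 0.09 in the amygdala to 6.66 ± 0.48 in the hippocampus, likewise without a step beyond the SD. Its saline colour was well above background on 1 of 4 arrays in the hypothalamus and 2 of 4 in the hippocampus, so the low end is a dim reading. Sox18 by probe 1 spanned 0.20 log2 units, from 10.84 ± 0.13 in the midbrain to 10.64 ± 0.11 in the cortex. Probe 2 spanned 0.74, with the lowest value in the hippocampus. Cldn5 was highest in the hypothalamus at 13.46 ± 0.27 and lowest in the cortex at 12.93 ± 0.20. Flt1 spanned 0.27 by its brighter probe, with no step beyond the SD, and 0.59 by the other, with 1 such step, between the hypothalamus and the hippocampus. Tek spanned 0.30 with no such step. By the brighter probe of each gene, the hippocampus had the lowest mean for 5 of the 7 genes and the cortex for the other 2. For Tek the level read 7.42 in both the hippocampus and the hypothalamus, and the dimmer probe of Flt1 was lowest in the ventral striatum. Among 8833 named genes, those whose 6 regional saline levels were most like those of Cldn5 were S100b (r = 0.997), Frem3 (0.990), Tcn2 (0.985), Vcp (0.982) and Stk16 (0.982). These r values rest on 6 points in which region and array batch cannot be told apart.

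**Figure D5:**
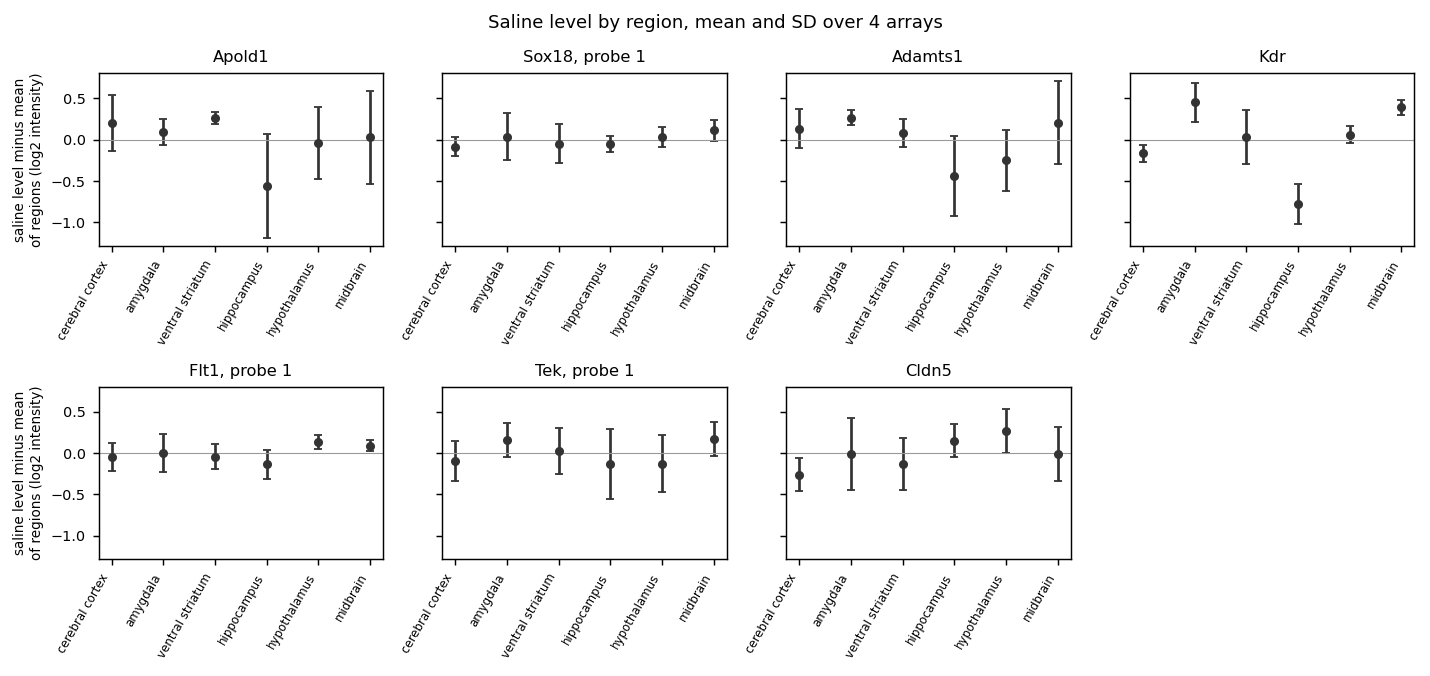
Saline level of each measured gene by region, as log2 intensity minus the gene's mean over the 6 regions, with points for means and bars for the SD over 4 arrays. Kdr is lowest in the hippocampus (11.99 against 13.23 in the amygdala, before centring), and Sox18 (0.20), Flt1 (0.27) and Tek (0.30) span the least by the brighter probe of each, the only one plotted. The other probes of Sox18 (0.74) and Flt1 (0.59) span more. The Cldn5 point of the hippocampus rests on 3 arrays.

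The markers of other cells in the tissue were present on the arrays. All 6 neuron, all 6 astrocyte, all 5 oligodendrocyte and all 6 microglia markers were measured. So were 11 of 12 endothelial markers, the missing one being Pecam1. Of 10 mural cell markers, 8 were fitted over both doses and 9 at the low dose. Over both doses 1 endothelial marker was called higher, Slc2a1, and 1 lower, Kdr, and the median of the 11 was 0.0009. Of the 11, 6 lay above 0. Over all genes, 1.43% were called higher and 1.2% lower over both doses. The endothelial median stayed between -0.08 and 0.08 over the regions at the high dose and between -0.06 and 0.02 at the low dose. Mural cell markers had a median of -0.01 over both doses, and 0 of 8 passed. At the low dose 5 of the 6 microglia markers lay above saline, with a list median of 0.13. Of these, 3 were called, C1qa at 0.15, P2ry12 at 0.17 and C1qb at 0.11. Over all genes, 1.31% were called higher and 1.31% lower at the low dose. All 5 oligodendrocyte markers lay above saline at the low dose, and of them Mag was called, at 0.13 ± 0.06. Slc6a13, of the meningeal list, was called below saline over both doses (-0.24 ± 0.19) and at the low dose (-0.31 ± 0.21). At the low dose 0 of the 7 meningeal markers lay above saline, with a list median of -0.29. Of the neuron, astrocyte and choroid plexus markers, 0 passed against saline.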

How the data were processed

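Gene expression was measured on 24 two-colour arrays. Per the file headers, the deposited scanner files give the fluorescence intensity of each of 45018 spots per colour, its local background and flags, and per the submitters' processing notes they came from Agilent Feature Extraction 9.5.3.1. The deposited value table holds the log10 ratio of the processed Cy5 to Cy3 signals, neither turned for dye nor centred. Comparison with the scanner files gave its scale and direction, and it served as an alternative.

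Here mean signals were background corrected (normexp, offset 50) and loess-normalized within arrays with limma 3.58.1 in R 4.3.3. Controls and outlier-flagged spots were left out, repeated spots were averaged per probe, and every ratio was expressed as log2 MK-801 over saline. A probe was kept where both its colours stood well above background on 12 or more of 24 arrays (27689 of 41012 probes, 55.2% to 78.5% per array passing). The brightest probe stood for a gene. Names came from accessions or symbols of the RefSeq table of assembly GRCr8 (10735 probes by accession, 5506 by symbol, 3718 by synonym, the rest as in the files). Saline levels are single-channel log2 intensities after quantile normalization of average intensity. Regional values, 1 per dye swap, were tested against 0 with lmFit and eBayes over at least 4 of the 6 regions. P values were adjusted over all genes and reflect how regions differ within the same animals, with no estimate of the spread between animals. Both doses are compared with the same saline group. The script was tested on simulated data.

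The vessel genes and all lists were chosen with earlier results of these data known. The text names all 8 genes, listed genes that were called, values farthest from 0 in a list, and the 5 genes most like Apold1, Kdr and Cldn5, except 1 value that is not reported here. No column belonged to another series. The number of arrays limits the precision.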

Additional observations from a re-analysis of the deposited data

Results flagged for a closer look

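In the low dose comparison with saline, the cerebral cortex stood far from the other 5 regions for 3 genes. Apold1 was at 2.53 there, with 1.10 in the ventral striatum as the nearest region. Adamts1 was at 1.15, with 0.39 in the amygdala nearest. Sox18 was at -0.57 by probe 1 and -0.41 by probe 2, against -0.18 in the hypothalamus and -0.13 in the amygdala. The dimmer Flt1 probe was lowest in the hypothalamus over both doses, at -0.16, and its high minus low difference was lowest in the hippocampus, at -0.18. In all, 36 groups of regional values were examined for a distant value, and 6 held one. These groups are not independent, because both probes of a gene and genes that moved together count separately. Most of them also use the contrast by which the genes were chosen, so nothing is read from the count. The doses differed for Apold1 by 0.94 and for Adamts1 by 0.36, high minus low, by the fit described above.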

How the results depend on the processing

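The number of genes called depended on several choices. With the log ratio of the scanner software it was 340 over both doses, 262 at the high dose, 327 at the low dose and 197 for high minus low, and with the values as deposited for the series it was 324, 261, 318 and 194. Without the amygdala it was 308 at the high dose. Without the ventral striatum it was 392 over both doses, 314 at the high and 396 at the low dose, and without the cerebral cortex 365 over both doses and 292 at the high dose. Within the scan day of the ventral striatum and cortex the 4 counts were 315, 281, 132 and 136, within that of the midbrain and amygdala 80, 197, 54 and 75, and within that of the hippocampus and hypothalamus 54, 88, 233 and 47. With single arrays and dye orientation as a replicate block, 1600 genes were called over both doses. The array numbers mark dye orientation only, and the labels give no pairing of animals. Leaving out 1 array number gave 3690 to 4741 calls over both doses, 6656 to 7540 at the high dose, 7270 to 8327 at the low dose and 5374 to 7421 for high minus low, with 1 dye orientation left for a dose. The Cldn5 high minus low difference was -0.1704 without replicate 2 and -0.1719 without replicate 3, with a highest value of 0.30. Leaving out 1 array number leaves 1 dye orientation for a dose, and the mean red over green log2 ratio of the Cldn5 probe was -0.23. The cause of the change in sign was not tested. High minus low was 0.70 to 1.18 for Apold1, called in 20 of 22 settings (adjusted p 1.38e-06 to 0.109, limma), and 0.23 to 0.75 for Adamts1, called in 18 of 21 (adjusted p 4.54e-05 to 0.692, limma). Sox18 was called in 5 of 22 settings, among them those without the hypothalamus (-0.20), with an intensity trend and robust prior, and with the mean of its probes. Against saline, Apold1 was called at the low dose in 12 of 20 settings and Kdr at the high dose in 13 of 20. With processed signals scaled to the 75th percentile, the highest saline region of Adamts1 and Kdr became the midbrain. The lowest saline region of the brighter Flt1 probe became the ventral striatum in place of the hippocampus. Dim probes limit Adamts1, Pecam1 and the further Tek probe.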
